A study of Mus musculus with 6 samples.

Results

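The genes described here encode contents and a membrane protein of cytotoxic granules, and a receptor subunit of the cell surface. These are the granzymes *Gzma*, *Gzmb* and *Gzmk*, the pore former *Prf1*, the proteoglycan *Srgn*, the granule membrane protein *Nkg7* and the receptor subunit *Klrd1*. For brevity all 7 are called granule genes below. They were chosen by name, 7 of the 14379 genes in the deposited table, and all 7 were among the 10173 genes that passed the filter on low values. The study compared naive CD4+ T cells (day 0) with CD4+ T cells activated in culture for 48 hours with anti-CD3/anti-CD28 (day 2), with 3 libraries of polyA RNA in each group, described by the study as biologically independent replicates. All cells came from the lymph nodes and spleen of wild-type C57BL/6 mice and were isolated as naive CD4+ T cells by FACS. The stimulus was plate-coated anti-CD3e with soluble anti-CD28 under nonpolarizing conditions. The methods give an age of 7 to 10 weeks and mice of either sex for experiments other than those on encephalomyelitis, and the sources used here do not state the gate that defined a naive cell. No library holds cells kept in culture without stimulation, so the effect of the stimulus and that of culture cannot be told apart.

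Cytotoxic lymphocytes kill by releasing preformed granules toward a target cell. Perforin opens the target membrane, granzymes enter through the pores and cleave proteins inside the cell, and the proteoglycan serglycin holds granzymes and perforin in the granule on its sulphated sugar chains. The programme is best known in CD8+ T cells and NK cells. CD4+ T cells can take up parts of it, and they do so most clearly as effector cells rather than as naive cells.

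Upon activation the 7 genes did not all move in the same direction. *Gzmb* and *Nkg7* rose, by 3.09 and 1.99 on the log2 scale, while *Prf1*, *Srgn*, *Klrd1* and *Gzmk* fell, with changes of -1.85, -1.13, -2.96 and -0.79, with groups that did not overlap in any of these 6 genes. *Gzma* was lower by 0.78, with groups that overlapped. A gene was called when its limma p-value, adjusted over all genes tested, was under 0.05 and its change was at least 1.5-fold. By this rule 2 of the 7 genes were higher and 5 were lower, beside 31.2% of all genes tested called higher, 21.6% called lower and 52.8% called in either direction. Groups did not overlap in 6 of the 7, beside 76.8% of all genes tested. The count of higher genes and the count without overlap are near these shares and are not read as a result about the granule genes. The median change of the 7 was -0.79, beside 0.13 over all genes tested. *Gzmk* and *Klrd1* passed the filter only through the naive libraries, where they were high, so neither could have been called higher. The count of lower genes and this median are thus not read as a result either. Under scaling by quantiles, by the median of ratios and by the upper quartile, which moved the median of all genes tested to 0.004, 0.008 and -0.08, each of the 7 genes kept its direction and its call.

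**Figure D1:**
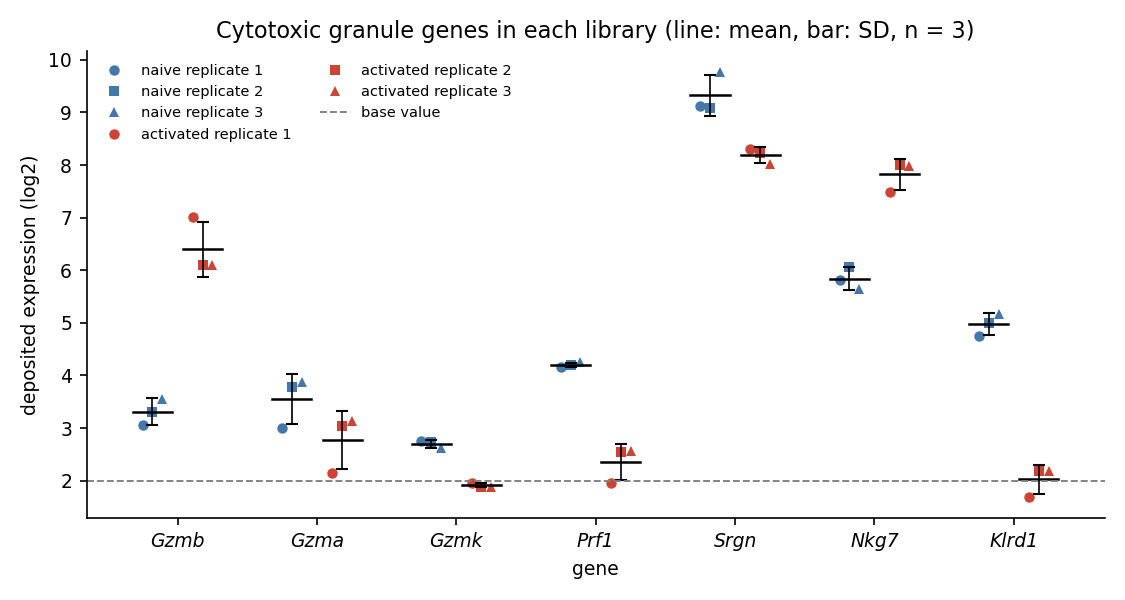
Deposited expression (log2, vertical axis) of the 7 granule genes in each of the 6 libraries, with blue symbols for naive cells, red symbols for activated cells and 1 symbol shape per replicate number. Horizontal lines are group means, bars are the SD (n = 3), and the dashed line is the base value of 1.99 shared by all libraries. *Gzmb* and *Nkg7* lie higher in every activated library, the groups of *Gzma* overlap, and *Gzmk* and *Klrd1* lie close to the base value after activation.

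**Figure D2:**
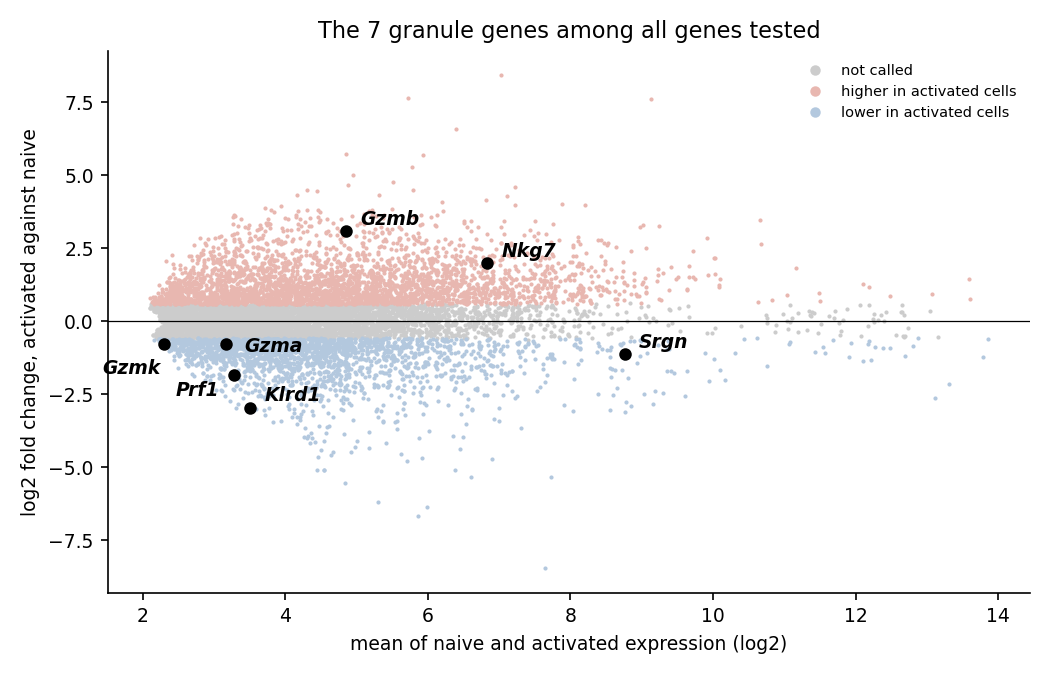
The log2 fold change of activated against naive cells (vertical axis) against the mean of both groups (log2, horizontal axis) for the 10173 genes tested, with pale red for genes called higher, pale blue for genes called lower, grey for genes not called and black for the 7 granule genes. *Srgn* is the granule gene at the highest level, and *Gzmk* lies at the low end of the genes tested.

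The proximal promoters of 3 genes that carry the contrast are shown, *Gzmb* and *Nkg7* as the genes that rose and *Prf1* as the partner of the granzymes that fell. Each is a window of 300 bases from RefSeq (build GRCm38.p6), from 250 bases before to 50 bases into the transcript, read 5′ to 3′ on the strand of the gene. The windows lie at chr14:56262285-56262584 on the minus strand for *Gzmb*, at chr7:43436888-43437187 on the plus strand for *Nkg7* and at chr10:61297586-61297885 on the plus strand for *Prf1*. The gene positions given below are from GENCODE, whose starts differ from those of RefSeq. The *Gzmb* window lies wholly upstream of the GENCODE gene, which begins at 56262260 on the minus strand. The GENCODE start of *Nkg7*, 43437073, lies inside its window and upstream of the RefSeq start. Capitals mark matches to any of the 6 short motifs searched, on either strand.
Gzmb promoter: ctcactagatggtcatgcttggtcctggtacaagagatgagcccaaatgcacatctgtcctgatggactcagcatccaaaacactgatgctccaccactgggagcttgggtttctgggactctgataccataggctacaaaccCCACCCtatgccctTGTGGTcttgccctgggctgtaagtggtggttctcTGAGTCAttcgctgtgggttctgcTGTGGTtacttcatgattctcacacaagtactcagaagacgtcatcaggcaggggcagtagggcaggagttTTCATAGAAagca
Nkg7 promoter: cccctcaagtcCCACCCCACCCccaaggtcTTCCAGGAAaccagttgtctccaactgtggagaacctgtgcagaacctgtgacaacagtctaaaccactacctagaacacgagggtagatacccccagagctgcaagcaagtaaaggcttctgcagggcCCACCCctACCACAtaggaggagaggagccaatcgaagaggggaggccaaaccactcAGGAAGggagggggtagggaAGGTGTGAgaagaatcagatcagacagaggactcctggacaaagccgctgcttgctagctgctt
Prf1 promoter: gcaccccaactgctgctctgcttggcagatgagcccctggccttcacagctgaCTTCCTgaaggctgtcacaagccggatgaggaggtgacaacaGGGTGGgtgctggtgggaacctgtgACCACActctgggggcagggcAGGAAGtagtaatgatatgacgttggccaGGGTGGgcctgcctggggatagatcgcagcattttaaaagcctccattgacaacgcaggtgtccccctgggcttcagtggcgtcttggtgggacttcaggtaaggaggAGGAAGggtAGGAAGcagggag

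The motifs were TGTGGT (Runx), CCACCC (Klf), AGGAAG (ETS), TTCNNNGAA (STAT), TGANTCA (AP-1) and AGGTGTGA (T-box). Positions are counted from the first base of the RefSeq transcript as 0. The *Gzmb* window held an AP-1 match from -58 to -52, Runx matches that begin at -93 and -34, a Klf match from -107 to -102, and a STAT match from 37 to 45. The *Nkg7* window held the only T-box match among the granule genes, from -14 to -7, a Runx match from -83 to -78, an ETS match, a STAT match from -220 to -212 and 3 Klf matches, of which those at -239 and -234 share a base. The *Prf1* window held 4 ETS matches, 2 Klf matches and a Runx match from -130 to -125. RefSeq windows were matched for 6 of the 7 genes, 7 windows in all, since *Srgn* has 2 and *Klrd1* none in the table used. Runx and Klf matches stood in 5 of the 7 windows each, beside 16.8% and 31.5% of 32851 windows of the same length. STAT and ETS matches stood in 2 each, beside 8.3% and 35.4%, and AP-1 and T-box matches in 1 each, beside 7.8% and 1.3%. None of the 6 motifs was found in the *Gzmk* window. A match is a run of letters and not a measured binding site. The motifs were chosen after these promoters were seen, and *Srgn* counts with 2 windows, so the counts beside these shares are no test of enrichment.

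The deposited values are on a log2 scale, headed FPKM and thus per length of gene, and had been corrected for batch by the authors. All libraries share a base value of 1.99 (3.97 on the linear scale), at which 688 to 923 genes stood per library. What it stands for is not stated, and 2396 genes had a value under it in some library. Linear units above the base are differences from it, and ratios of them assume that it stands for no expression, in which case a fold change on the deposited scale understates the change of a gene of low level. Library medians lay between 3.27 and 3.50. Naive replicate 3 and activated replicate 1 stood apart from the others of their group: log2 differences across genes had an SD of 0.30 and 0.33 between naive replicate 3 and the other naive libraries and 0.26 between activated replicate 1 and each of the other activated libraries, beside 0.14 and 0.09 between the remaining libraries. Naive replicates 1 and 2 held identical values away from the base for 352 genes, and activated replicates 2 and 3 for 670. The origin of these identical values is not known, and each SD, SE and p-value here treats the 3 libraries of a group as independent. With each of these pairs averaged into 1 library, 2 granule genes were higher and 5 were lower. That limma fit held 2 libraries per group, yet gave smaller adjusted p-values than the full fit (*Gzma*, 1.3e-05 against 0.036). It does not settle whether the calls depend on the identical values. The labelled state showed in *Il2*, the T cell growth factor gene (2.74 to 2.88 in naive and 11.01 to 11.37 in activated libraries, log2). *Cd4* stood at 8.63 to 9.02 in naive and at 7.14 to 7.77 in activated libraries.

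*Gzmb* was the granzyme gene called higher after activation. It encodes granzyme B, which cleaves after aspartate and activates caspases, and lies at chr14:56258838-56262260 on the minus strand (GRCm38/mm10, 5 exons). Its level on the log2 scale was 3.05, 3.31 and 3.56 in naive replicates 1 to 3 and 7.0, 6.09 and 6.10 in activated replicates 1 to 3. Every activated library lay far above every naive library, and activated replicate 1 was higher than the other activated libraries by 0.91. The mean rose from 3.31 ± 0.25 to 6.40 ± 0.52 (SD, n = 3), a log2 fold change of 3.09 (SE 0.25, 95% confidence interval 2.53 to 3.65, adjusted p = 4.7e-06), or 8.53-fold on the deposited scale. The exact two-sided permutation test gave p = 0.1, the smallest that 3 against 3 libraries allow. On the linear scale above the base value, the mean was 6.03 units in naive and 84.5 units in activated cells, a ratio of 14. *Gzmb* moved from rank 7259 to rank 1452 by level among the 14379 genes and had the 116th largest rise among the genes tested. With naive replicate 3 and activated replicate 1 left out, the rise was 2.92.

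*Gzma* encodes granzyme A, a protease that cleaves after basic residues, and lies at chr13:113093825-113100981 on the minus strand (5 exons). Its level was 3.00, 3.78 and 3.88 in the naive libraries and 2.15, 3.04 and 3.14 in the activated libraries. Naive replicate 1 lay below activated replicates 2 and 3, so the groups overlapped. The mean was 3.55 ± 0.48 in naive and 2.78 ± 0.55 in activated cells, a log2 difference of -0.78 (SE 0.29, 95% confidence interval -1.44 to -0.12, adjusted p = 0.036, exact two-sided permutation p = 0.3). The call was lost without naive replicate 2 (-0.66, adjusted p = 0.11), without naive replicate 3 (-0.61, adjusted p = 0.13), and without activated replicate 1 (-0.46, adjusted p = 0.14). Without naive replicate 3 and activated replicate 1 the difference was -0.30 (adjusted p = 0.23). The call of *Gzma* thus rested on single libraries.

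*Gzmk* encodes granzyme K, a trypsin-like granzyme, and is the next gene along chromosome 13 from *Gzma* (chr13:113171608-113225908, minus strand, 5 exons). Its level was 2.75, 2.74 and 2.62 in the naive libraries and 1.95, 1.89 and 1.89 in the activated libraries. The groups did not overlap, and all 3 activated libraries lay below the base value, so that no fold above it can be given. The mean fell from 2.70 ± 0.07 to 1.91 ± 0.04, a log2 fold change of -0.79 (SE 0.06, adjusted p = 4.7e-06, exact two-sided permutation p = 0.1). Activated replicates 2 and 3 held the same rounded value (1.887), under the base, and the small SE and adjusted p rest in part on it. Before activation *Gzmk* stood at 2.16 to 2.76 linear units above the base value, and after activation at -0.27 to -0.10 units. In GENCODE, *Gzmk* overlaps *Esm1* on the opposite strand over 8440 bases. The RefSeq promoter window of *Gzmk* (chr13:113180916-113181215) lies short of *Esm1* (chr13:113209659-113218098), so the RefSeq transcript does not reach that gene. The sources used here do not say whether the authors' counting used strand, and *Esm1* itself had means of 2.13 and 1.96 and did not pass the filter.

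No further granzyme gene was called. Of 7 such genes, 3 were in the table and 1 was tested. *Gzmc*, the next gene to *Gzmb*, had log2 values of 2.66, 2.96 and 2.85 in naive and of 1.46, 3.06 and 2.99 in activated libraries, a difference of -0.32 (SE 0.36, adjusted p = 0.43). It overlapped between groups, and activated replicate 1 stood far below the other 2 activated libraries. *Gzmf* (means of 2.00 and 2.19) and *Gzmm* (2.23 in both groups) lay near the base value and did not pass the filter. The principal transcripts of *Gzmb* and *Gzmc* share 77.3% identity over 844 aligned bases. None of the 50-base windows of the principal transcript of any of the 7 granule genes occurred in a transcript of another protein-coding gene.

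*Prf1* encodes perforin, the pore-forming protein that lets granzymes reach the target cytosol, and lies at chr10:61297833-61304680 on the plus strand (2 exons in its principal transcript). Its level was 4.17, 4.20 and 4.25 in the naive libraries and 1.95, 2.54 and 2.57 in the activated libraries. The naive libraries were tightly grouped, every activated library lay below them, and activated replicate 1 was below the base value. The mean fell from 4.20 ± 0.04 to 2.35 ± 0.35, a log2 fold change of -1.85 (SE 0.16, 95% confidence interval -2.21 to -1.48, adjusted p = 8e-06, exact two-sided permutation p = 0.1). In linear units above the base value, the naive libraries stood at 14 to 15, activated replicates 2 and 3 at 1.85 and 1.97, and activated replicate 1 at -0.11. *Prf1* moved from rank 4950 to rank 9706 by level.

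*Gzmb* and *Prf1*, the granzyme and the pore former of the same killing pathway, changed places in order of level. The log2 level of *Gzmb* minus that of *Prf1* was -1.11, -0.89 and -0.69 in the naive libraries. It was 5.06, 3.55 and 3.53 in the activated libraries. *Prf1* was the higher of the 2 in every naive library and *Gzmb* in every activated library.

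*Srgn* encodes serglycin, the proteoglycan core of the granule matrix, and lies at chr10:62493833-62527451 on the minus strand (3 exons). Its level was 9.13, 9.08 and 9.77 in the naive libraries and 8.31, 8.24 and 8.03 in the activated libraries. All activated libraries lay below all naive ones, and naive replicate 3 exceeded the other naive libraries by 0.67. The mean fell from 9.33 ± 0.39 to 8.19 ± 0.15, a log2 fold change of -1.13 (SE 0.20, 95% confidence interval -1.57 to -0.69, adjusted p = 0.0006, exact two-sided permutation p = 0.1), which is 2.19-fold down on the deposited scale. *Srgn* stayed the most abundant of the 7 genes, at rank 143 of all genes in naive and rank 411 in activated cells.

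*Nkg7* encodes a small membrane protein of cytotoxic granules that takes part in their exocytosis in mouse T and NK cells, and lies at chr7:43437073-43438249 on the plus strand (4 exons). Its level was 5.81, 6.07 and 5.64 in the naive libraries and 7.48, 8.0 and 7.99 in the activated libraries. Each activated library lay above each naive library, with activated replicate 1 lowest of the activated libraries, by 0.51. The mean rose from 5.84 ± 0.22 to 7.83 ± 0.30, a log2 fold change of 1.99 (SE 0.18, 95% confidence interval 1.58 to 2.40, adjusted p = 1e-05, exact two-sided permutation p = 0.1), or 3.97-fold on the deposited scale. In linear units above the base value, the means were 53.7 and 226, a ratio of 4.21. Before activation *Nkg7* already stood further above the base value than *Gzmb* did.

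*Klrd1* encodes CD94, the chain that pairs with NKG2 proteins to form receptors for nonclassical MHC class I molecules on NK cells and some T cells. It lies at chr6:129591782-129598775 on the plus strand (6 exons in its principal transcript). Its level was 4.76, 5.0 and 5.18 in the naive libraries and 1.70, 2.18 and 2.19 in the activated libraries. The groups were far apart, and activated replicate 1 lay below the base value while the other activated libraries stood 0.55 and 0.60 linear units above it, against 23.1 to 32.2 units in the naive libraries. The log2 fold change was -2.96 (SE 0.17, 95% confidence interval -3.33 to -2.58, adjusted p = 5.5e-07, exact two-sided permutation p = 0.1), the 93rd largest fall among the genes tested. The log2 level of *Nkg7* minus that of *Klrd1* was 1.05, 1.07 and 0.46 in naive libraries and 5.79, 5.83 and 5.80 in activated libraries. These are bulk RNA values, in which fewer cells of a type and less RNA per cell cannot be told apart.

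In naive cells the order of log2 level was *Srgn*, *Nkg7*, *Klrd1*, *Prf1*, *Gzma*, *Gzmb* and *Gzmk*. Neighbours were called apart where their difference had the same sign in all 3 libraries and exceeded the larger SD, and by this rule all naive neighbours were apart except *Gzma* and *Gzmb*, which differed by 0.24. In activated cells the order was *Srgn*, *Nkg7*, *Gzmb*, *Gzma*, *Prf1*, *Klrd1* and *Gzmk*. The first 3 were apart from each other and *Gzmb* lay above *Gzma* by 3.63, while no neighbours among the last 4 were apart. *Srgn* and *Nkg7* lay within 0.37 of each other after activation, beside 3.49 before it.

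Summed in linear units above the base value, the 7 genes made 657 to 983 units in the naive libraries and 580 to 621 in the activated libraries. *Srgn* made up 81.2% to 88.4% of this sum in naive cells and 44.4% to 51.1% in activated cells. *Nkg7* went from 4.66% to 9.56% in naive to 28.5% to 43.2% in activated libraries. *Gzmb* went from 0.66% to 0.90% to a share of 10.4% to 20.3%, with the highest share in activated replicate 1.

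The library that stood apart among the activated ones did so in both directions for these genes. Activated replicate 1 was above the mean of activated replicates 2 and 3 for *Gzmb* (0.91), *Srgn* (0.18) and *Gzmk* (0.07), and it differed from that mean by -0.94 for *Gzma*, -0.61 for *Prf1*, -0.51 for *Nkg7* and -0.49 for *Klrd1*. With this library and naive replicate 3 left out, the changes were 2.92 for *Gzmb*, 2.06 for *Nkg7*, -2.70 for *Klrd1*, -1.63 for *Prf1*, -0.97 for *Srgn* and -0.86 for *Gzmk*, and each kept its call. The 2 higher genes then remained 2, and the 5 lower genes became 4, with *Gzma* the gene lost.

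**Figure D3:**
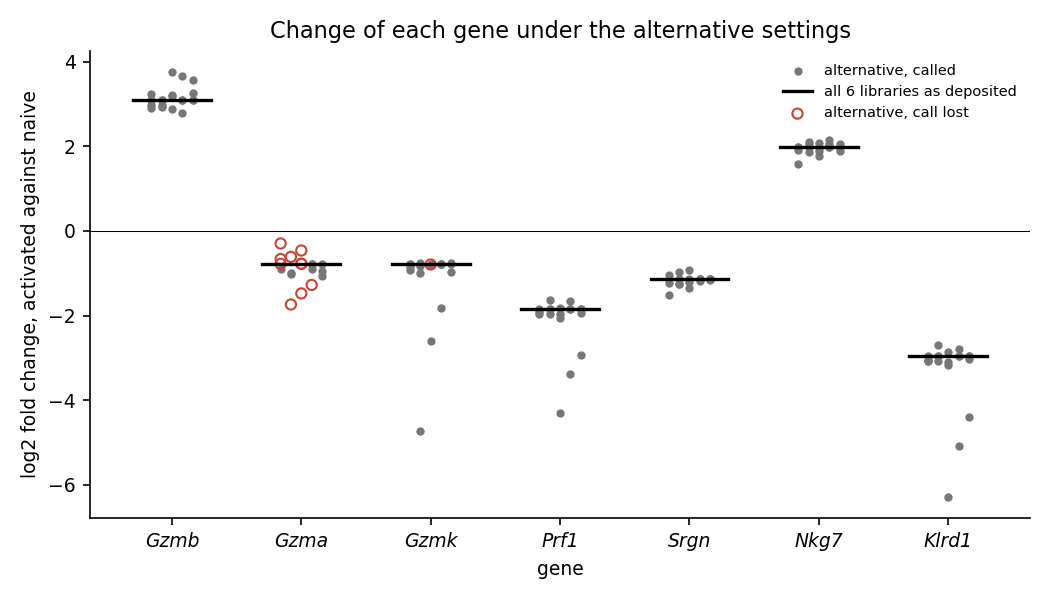
The log2 fold change of each granule gene (vertical axis) under the alternative settings, with grey points where the gene was called, open red circles where the call was lost and a black line for the change in all 6 libraries as deposited. No gene changed sign. *Gzma* lost its call in 10 of 19 settings and *Gzmk* in 1 of 19, and the low points of *Gzmk*, *Prf1* and *Klrd1* are those on values above the base.

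The genes whose 6 values, centred on their mean, lay nearest to those of each granule gene were found by the root mean square distance over the 6 libraries (log2 units). For *Gzmb* these were *Uhrf1*, which maintains DNA methylation at replication (0.11), *Plk2*, a polo-like kinase (0.14), and *Tpx2*, a spindle assembly factor (0.14). For *Nkg7* they were *Timm8b*, *Bloc1s2* and *Hmgn1*, at 0.09 to 0.12. For *Klrd1* they were *Cd55*, which limits complement at the cell surface (0.09), *Trp53inp1* and *Tdrp*. For *Prf1* they were *Siah1a*, *Trim5* and *Ypel5* (0.11 to 0.16), and for *Srgn* they were *Cul3*, *Foxn2* and *Shoc2* (0.05 to 0.06). *Gzmk* lay nearest to *Tmem108*, *Ccndbp1* and *Myo10* (0.04 each). *Gzma* had no near neighbour by this measure: its nearest were *Rpl22*, *Smim8* and *Cd74*, at 0.25 to 0.28. With 6 libraries in 2 groups, such likeness rests mainly on the size of the change.

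Genes next to the granule genes on the chromosome moved in various directions. Beside *Nkg7*, *Etfb*, an electron transfer flavoprotein subunit, rose by 2.15. Beside *Srgn*, *Vps26a*, a retromer subunit, fell by 0.99 and *Ddx21*, a nucleolar RNA helicase, rose by 1.48. In the NK gene complex beside *Klrd1*, *Gabarapl1*, an autophagy gene, rose by 3.07, *Klrk1*, which encodes NKG2D, differed by -0.52 and was not called, and *Klre1* and *Klrc3* did not pass the filter. *Adamts14* beside *Prf1* differed by -0.46 and was not called. The other neighbours in the table, next to *Gzma*, *Gzmb*, *Gzmk*, *Prf1* and *Nkg7*, did not pass the filter, apart from *Gzmc* and the granule genes themselves.

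Genes of the surrounding pathway were taken from lists, and each list is given by its counts beside 31.2% higher and 21.6% lower over all genes tested. Of 12 genes of granule maturation and content that were tested, 1 was higher, 3 were lower and 8 were not called, with a median of -0.23. *Cst7*, which encodes cystatin F, an inhibitor of granule cathepsins, rose by 1.38, from 6.06 to 6.33 in naive to 7.51 to 7.69 in activated libraries. *Ctsw*, the cathepsin W gene of T and NK cells, fell by 2.81, from 6.06 to 6.48 to a range of 3.25 to 3.65. *Igf2r*, a mannose 6-phosphate receptor that sorts granule proteases, fell by 1.08 and *Gnptg*, a subunit of the enzyme that makes the mannose 6-phosphate tag, by 0.71. *Ctsc*, whose product removes the propeptide of granzymes, had means of 5.02 and 4.75 and was not called (-0.28, SE 0.17). The count of higher genes was 3 without naive replicate 3, 2 without activated replicate 2 and 3 without activated replicate 3.

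Of 18 tested genes of granule movement and exocytosis, 1 was higher, 6 were lower and 11 were not called (median -0.38). *Stx11*, a syntaxin needed for granule fusion, rose by 1.28, from 3.00 to 3.35 in naive to 4.24 to 4.88 in activated libraries. *Rab27a*, the GTPase that docks granules, fell by 1.21, from 5.44 to 5.81 to a range of 4.24 to 4.52. *Sytl2*, a Rab27 effector, fell by 0.91, *Snap23* by 0.89 and *Vamp4* by 0.88. *Unc13d*, which primes granules for fusion, differed by 0.19 (SE 0.29) and *Stxbp2*, the partner of syntaxin 11, by 0.07 (SE 0.16), and neither was called.

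Chondroitin sulphate chains are built on the serglycin core. Of 17 tested genes of their synthesis, 6 were higher, 5 were lower and 6 were not called (median 0.43). The enzymes of the linker that joins chain and core did not move in 1 direction: *Xylt2* fell by 1.37, *B4galt7* by 1.05 and *Xylt1* by 0.90, while *B3gat3* rose by 0.90. Among the genes of chain growth and sulphate supply, *Slc35b2*, the transporter of the sulphate donor, rose by 1.57, *Chpf* by 1.23 and *Chsy1* by 0.81. *Chst12*, a chondroitin 4-sulphotransferase, fell by 1.45.

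Serpins of the cytosol protect a cell against granzymes that leak from its own granules. Of 6 tested serpin genes in this list, 4 were higher, 1 was lower and 1 was not called, with a median of 2.57. *Serpinb9*, the granzyme B inhibitor of the mouse, had values of 3.90, 3.90 and 4.65 in naive and of 6.95, 6.36 and 6.05 in activated libraries and rose by 2.31 (SE 0.27). *Serpina3f* rose by 3.50, *Serpinb6b* by 2.91 and *Serpina3g* by 2.82, with no overlap of groups in any of them. The product of *Serpina3g* is known as an inhibitor of lysosomal cathepsins rather than of granzymes. *Serpinb6a* fell by 0.75, a call that was lost when naive replicate 3 and activated replicate 1 were left out, and *Serpinb1a* differed by -0.48 and was not called. Without naive replicate 1 the count of lower genes was 2. *Serpinb9b* did not pass the filter.

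Of 5 genes for other killing molecules and effector cytokines, 3 were higher and 1 was lower (median 3.32). *Ifng*, *Lta* and *Tnf* rose by 3.52, 3.43 and 3.32. *Tnfsf10*, which encodes TRAIL, fell by 1.16. *Fasl*, the ligand of the death receptor Fas, had means of 4.27 and 4.42 and was not called (0.15, SE 0.21).

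**Figure D4:**
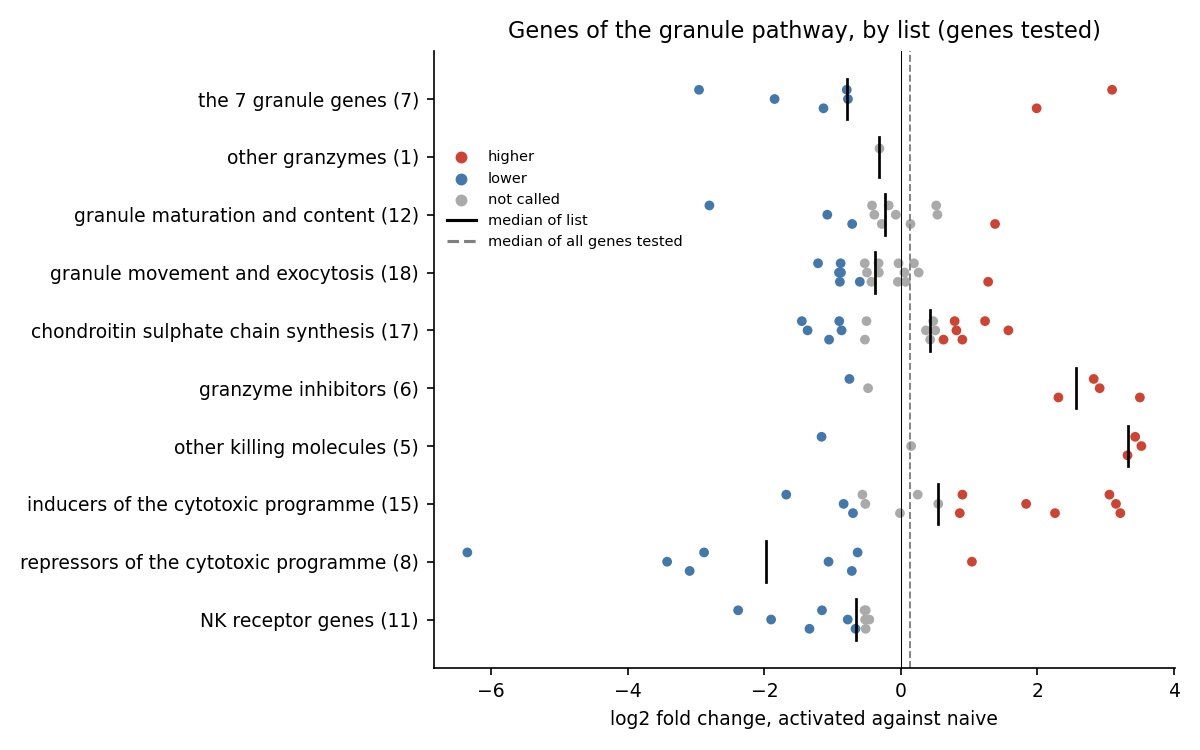
The log2 fold change of activated against naive cells (horizontal axis) for the tested genes of each list (1 row per list, with the number tested in brackets), red for genes called higher, blue for genes called lower and grey for genes not called. Black bars are list medians, and the dashed line is the median of 0.13 over all genes tested. The list labelled granzyme inhibitors has a median of 2.57, the other killing molecules 3.32 and the repressors -1.97. The first of these lists also holds *Serpina3g*, known as a cathepsin inhibitor.

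Of 15 tested genes known to induce the cytotoxic programme, 7 were higher, 3 were lower and 5 were not called (median 0.55). *Tbx21*, the gene of T-bet, had values of 3.80, 3.68 and 4.07 in naive and of 7.43, 6.77 and 6.80 in activated libraries and rose by 3.15 (SE 0.20). *Irf4* rose by 3.21, *Bhlhe40* by 3.05 and *Il2ra*, the alpha chain of the IL-2 receptor, by 2.26. *Id2* fell by 1.68 and *Prdm1*, the gene of Blimp-1, by 0.84. *Runx3* was lower by 0.70 with overlapping groups, since activated replicate 1 (4.93) lay above naive replicate 1 (4.82). *Eomes*, the T-box factor that drives *Prf1* in CD8+ T cells, had means of 3.37 and 2.80 and was not called (-0.56, SE 0.15). Without activated replicate 1 the count of lower genes was 5.

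Of 8 genes known to hold naive T cells back from this programme, 7 were lower and 1 was higher (median -1.97). *Klf2* fell by 6.35, from 8.99 to 9.39 in naive to 2.64 to 2.92 in activated libraries. *Foxo1* fell by 3.42, *Tcf7* by 3.09, *Lef1* by 2.88, and *Bcl6* by 1.06, and *Bach2* fell by 0.63. *Zbtb7b*, the gene of ThPOK, which keeps CD8 genes silent in CD4+ T cells, was lower by 0.72 with overlapping groups. *Id3* was higher by 1.04, but naive replicate 3 (4.85) lay far below the other naive libraries (6.22 and 6.53), and the call was lost without it, without activated replicate 1, and under quantile and upper-quartile scaling.

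*Klrd1* belongs to a family of NK receptor genes. Of 22 other such genes measured, 11 were tested, of which 6 were lower and 5 were not called (median -0.67). Most of the 11, *Klrg1*, *Klrb1c* and *Klra1* among them, passed the filter only through the naive libraries and could not have been called higher. The counts and the median of this list are thus not read as a result about the family. *Klrg1*, an inhibitory receptor of effector cells, had values of 4.45, 4.04 and 4.42 in naive and of 1.77, 2.00 and 2.00 in activated libraries and fell by 2.38 (SE 0.13). *Hcst*, the adaptor DAP10, fell by 1.90, *Klrb1c* fell by 1.34 and *Klra1* fell by 1.16. *Klrc1*, which encodes the NKG2A partner of CD94, differed by -0.53 (SE 0.16) and was not called. Summed above the base value, the 22 genes made 156 to 282 linear units in naive and 40.1 to 61.2 units in activated libraries, and 7 of them stood under 1 unit in every library. Without *Hcst*, which had log2 values of 7.91, 7.73 and 6.47 in naive and of 5.35, 5.28 and 5.78 in activated libraries, the other 21 made 45.5 to 71.4 and 3.21 to 11.6 units. Under scaling by quantiles, by the median of ratios and by the upper quartile, 10, 10 and 11 of the 11 were called lower.

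Of the markers of other cells that hold cytotoxic granules, some, such as *Cd8b1*, were present in the naive libraries. *Cd8a* and *Ncr1* did not pass the filter. The naive mean of *Cd8b1*, 5.94 on the log2 scale, lay above that of every granule gene except *Srgn*. The CD8 T cell markers *Cd8a* and *Cd8b1* summed to 49.5 to 75.2 linear units in naive and to 6.78 to 10.5 in activated libraries, beside 5776 to 6280 and 1878 to 2418 for 9 markers of CD4 T cells. *Cd8b1* had log2 values of 5.71, 6.21 and 5.90 in naive and of 3.85, 3.60 and 3.35 in activated libraries, while *Cd8a* lay at 2.14 to 3.16 and at 1.94 to 2.18 and did not pass the filter. Of 9 NK cell markers 6 were tested and 3 were lower, and *Ncr1*, a defining NK marker, had log2 values of 2.18 to 2.39 in naive and of 1.87 to 2.25 in activated libraries, near the base value, and did not pass the filter. The NK markers summed to 47.0 to 61.5 units in naive and to 13.9 to 98.0 in activated libraries. *Xcl1*, which activated T cells also express, ranged from 3.43 in activated replicate 1 to 6.43 in activated replicate 2 and was not called in the 6 libraries as deposited (adjusted p = 0.098), but it was called higher without activated replicate 1, with the replicate block and with the libraries of identical values averaged. *Cd8b1* and the 3 lower NK markers (*Klrb1c*, *Tyrobp* and *Fcer1g*) fell, as did *Prf1*, *Klrd1* and *Gzmk*. Of the 9 CD4 T cell markers, 8 were also called lower, with a median of -1.45, so a fall was not particular to the markers of other cells. The part of CD8 T cells and NK cells in the falls of the granule genes was not tested.

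Genes of memory or effector T cells were also present before activation. Of 11 such markers 2 were higher, 7 were lower and 2 were not called, and their sum was 480 to 648 units in naive and 346 to 579 units in activated libraries. *S100a6*, a calcium-binding protein gene of memory cells, fell by 3.59, *Cxcr6* by 3.42, *Cxcr3* fell by 2.55 and *S100a4* fell by 2.03, while *Cd44* rose by 1.03 and *Itgb1* by 0.89. The part of antigen-experienced cells in the naive levels of *Gzma*, *Gzmk*, *Prf1* and *Klrd1* was not tested. Mast cell and basophil markers, which go with *Srgn* in granules of those cells, summed to 5.67 to 7.15 units in naive and 0.13 to 0.49 in activated libraries, against 536 to 869 and 257 to 314 units of *Srgn* itself. The 4 platelet markers each stood under 1 unit in all libraries. Markers of B cells (6 in the table) summed to 8.89 to 36.3 and 10.1 to 17.5 units. Markers of myeloid cells (9 in the table) summed to 155 to 334 and 152 to 163 units, with 2 of 6 tested called lower. *Lyz2*, the lysozyme gene, fell by 1.86 and *Fcgr3* fell by 0.83. *Cst3* lay at 6.74 to 7.10 in naive and at 7.08 to 7.21 in activated libraries, and *S100a9* at 7.13 in naive replicate 2 and at the base value in all activated libraries. Of 7 regulatory T cell markers, 1 was higher and 4 were lower, with sums of 180 to 193 and 320 to 518 units. *Foxp3*, the defining gene of these cells, fell by 2.45, from 4.74 to 5.34 in naive to 2.33 to 2.83 in activated libraries, *Gpr83* fell by 1.85, *Ikzf2* fell by 0.94 and *Ikzf4* fell by 0.69. *Tnfrsf18*, which activated T cells also express, rose by 2.23, and *Ctla4* (0.37) and *Nrp1* (-0.50) were not called. The part of regulatory T cells, myeloid cells and mast cells in the values of the granule genes was not tested. Markers of innate-like T cells summed to 1.46 to 2.89 and to 0.79 to 1.07 units over the 3 in the table.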

How the data were processed

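PolyA RNA of 3 naive and 3 activated (48 hours) CD4+ T cell libraries was sequenced, and libraries were grouped by the submitters' labels. The submitters' processing notes name HISAT2 2.0.5, StringTie 1.3.3b and featureCounts 1.5.0-p3 on mm10. The authors deposited log2 expression values headed FPKM, in a sheet named for ComBat, a batch correction, which may reduce the differences among replicates on which each p-value rests. Neither its batches nor the pseudocount is given in the sources used here. The table holds no counts, so the depth is unknown.

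Genes were tested if at least 3 of the 6 libraries lay 1 linear unit or more over the base value. A gene that passed through 1 group alone could be called only as higher in that group. The deposited log2 values were fitted in R 4.3.3 by limma 3.58.1 (lmFit, eBayes with trend, no covariate), with Benjamini-Hochberg adjustment across all 10173 genes tested. Each granule gene also had an exact permutation test. The fit was tested on simulated data. Tables and figures were made in Python 3.11.15 (numpy 2.4.6, pandas 2.3.3, matplotlib 3.10.9, scipy 1.17.1), and identities by blastn 2.17.0. Positions come from GENCODE and promoters from RefSeq. Motifs were chosen after the promoters were seen, and members and lists were chosen with earlier results of these data known. Named genes are the 7 genes, for each pathway list up to 4 called genes per direction with the largest change and no overlap (every gene of a list of 8 or fewer), the 3 nearest genes by profile and 2 chromosomal neighbours on each side. Not every gene the rule names is reported here. Other genes, those of the marker lists included, were named after their values were seen. Alternatives were other filters, pseudocounts of 0.1, 0.5 and 1 on values above the base, 3 scalings, no trend, a replicate block, libraries left out or averaged, and other fold thresholds.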

Additional observations from a re-analysis of the deposited data

How the results depend on the processing

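*Gzmb*, *Prf1*, *Nkg7*, *Srgn* and *Klrd1* kept their direction and call in each of 20 alternatives, with log2 fold changes of 2.79 to 3.75, -4.30 to -1.63, 1.57 to 2.16, -1.51 to -0.91 and -6.28 to -2.70. *Gzmk* kept its call in 18 of 19 (-4.71 to -0.76) and *Gzma* in 9 of 19 (-1.74 to -0.30). No gene changed sign. *Gzma* lost its call with no filter (-0.78, adjusted p = 0.12), with pseudocounts of 0.1 (-1.74, 0.086), 0.5 (-1.48, 0.063) and 1 (-1.28, 0.053), with limma without the trend (-0.78, 0.052), and without naive replicate 3 and activated replicate 1 (-0.30, 0.23). With 1 library left out, it ranged from -1.05 to -0.46. At a 2-fold threshold *Gzma* (-0.78) and *Gzmk* (-0.79) were not called, so that 3 of the 7 genes were lower, and over all genes 1913 were higher and 1181 lower, against 3175 and 2195. With the filter of 5 units *Gzma* and *Gzmk* were not tested, and 3 were again lower. The split of all genes into higher and lower was 2618 and 2595 under quantile normalization, 2745 and 2633 under median-of-ratios scaling and 2478 and 2961 under upper-quartile scaling. Of 800 list counts under alternatives, 734 were within 1.5 times the count reported.

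With the replicate number as a replicate block, 3181 genes were higher and 2202 lower, and the 7 granule genes kept their calls. The numbers do not pair the samples: deviations from the group means of same-numbered libraries correlated at -0.01, -0.05 and -0.14 across genes, and the labels name no shared animal. The causes of the differences between settings were not tested. With the depth unknown, no counting error can be given for genes near the base value.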
